A study of Homo sapiens with 12 samples.

Results

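The genes described are the 36 human aminoacyl-tRNA synthetases, 20 cytosolic and 16 mitochondrial (the genes whose symbol ends in 2). They were chosen by name, and each was followed through probes that the platform annotation assigns to 1 gene. Of the 36 genes, 32 were measured on the Affymetrix GeneChip (AFFX) and 34 on the Applied Biosystems Human Genome Survey Microarray (ABI), with 31 on both. They stand among 19777 genes on AFFX, 17192 on ABI and 16186 shared genes. DARS had no single-gene probe on either platform, MARS, QARS and TARS2 were measured on ABI alone, and YARS2 was measured on AFFX alone. Symbols of the cytosolic enzymes are the older ones, without the 1 that the current symbols carry, except for FARSA and FARSB.

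RNA came from A2780 cells, a human ovarian carcinoma line, exposed for 6 h to 3 µM of a cell cycle inhibitor that the sources do not name, or left untreated. Only attached cells were collected. Biological replicates of each condition were pooled into 1 RNA sample, and 3 aliquots per condition were hybridised on each platform, so there are 3 treated and 3 control arrays on AFFX and the same on ABI. The p-values therefore measure the spread between aliquots of 2 pools, not between cultures.

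Aminoacyl-tRNA synthetases attach each amino acid to its tRNA and so set the supply of charged tRNA for the ribosome. Most amino acids have 1 enzyme in the cytosol and another, from a separate nuclear gene, for the mitochondrial ribosome, while GARS and KARS serve both places. The enzymes fall into class I and class II, which differ in the fold of the catalytic domain. Several cytosolic enzymes assemble into a multisynthetase complex. ATF4, the transcription factor of the amino acid response, is known to drive many of the cytosolic genes through promoter elements related to TTGCATCA.

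That element is shown first, because it sets 6 of the cytosolic genes apart by sequence. RefSeq promoter windows on GRCh38.p14, with 250 bases before the start and 50 after it, were matched for 30 of the 36 genes. VARS2, DARS, AARS2, YARS, LARS and VARS had no entry. The 8 letters TTGCATCA, searched on both strands, were present in the window of 6 of 16 cytosolic genes (37.5%), in 0 of 14 mitochondrial genes, and in 295 of 27305 genes in the table (1.08%). The stretches follow 5′ to 3′ along each gene, with the 8 letters (or their reverse complement, in NARS) in capitals.
AARS: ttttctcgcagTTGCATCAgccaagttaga
CARS: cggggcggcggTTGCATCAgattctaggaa
IARS: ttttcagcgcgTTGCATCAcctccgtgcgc
MARS: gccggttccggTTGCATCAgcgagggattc
NARS: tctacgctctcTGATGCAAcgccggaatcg
TARS: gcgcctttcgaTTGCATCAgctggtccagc
AARS lies at chr16:70289675-70289704 (minus strand), CARS at chr11:3057407-3057436 (minus), IARS at chr9:92293692-92293721 (minus), MARS at chr12:57488053-57488082 (plus), NARS at chr18:57621804-57621833 (minus) and TARS at chr5:33440956-33440985 (plus). Counting the first transcribed base as 1, the element began at position -187 in AARS, -2 in CARS, -13 in IARS, -4 in MARS, 15 in NARS and 3 in TARS. With the looser letters TGATGNAA, GARS and the mitochondrial gene YARS2 were also matched, and 4.46% of all genes were. A match is a description of letters and not a site shown to be bound.

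Few synthetases were called at 6 h, and with a 1.5-fold limit the 2 called lower on both platforms were mitochondrial. A gene was called when limma gave a Benjamini-Hochberg adjusted p under 0.05 and the change was at least 1.5-fold. On AFFX, 5 of 32 synthetases were lower in treated cells (15.6%, against 14.2% of all genes) and 0 were higher (against 2.49% of all genes). At an unadjusted p under 0.05 with no fold limit, limma placed 10 higher on AFFX, and the methods' t-test, after Benjamini-Hochberg adjustment at 0.05 and with the 1.5-fold limit, called 0 higher. On ABI, 5 of 34 were lower (14.7%, against 14.8% of all genes) and 1 was higher (2.94%, against 6.31%). Only PARS2 and HARS2, both mitochondrial and both class II, were called lower on both platforms. They are 2 of 31 shared synthetases, where 10.5% of all shared genes were called lower on both. On either platform 9 of the 31 were called (29%, against 28.4% of all shared genes). None was called higher on both, where 0.42% of shared genes were, and none was called in opposite directions, where 0.352% were. At an unadjusted p under 0.05 in limma, 0 were higher on both and 1 was opposite, and the methods' t-test, adjusted and with the fold limit, called 0 of either kind. The shares called with the 1.5-fold limit lie near or below those of all genes. Without the fold limit 4 were lower on both, with FARSA, a cytosolic gene, and AARS2, a mitochondrial one, beside those 2. In such bulk RNA, fewer cells of a kind and less RNA per cell cannot be told apart.

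The values of all members relative to no change are shown by compartment.

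**Figure D1:**
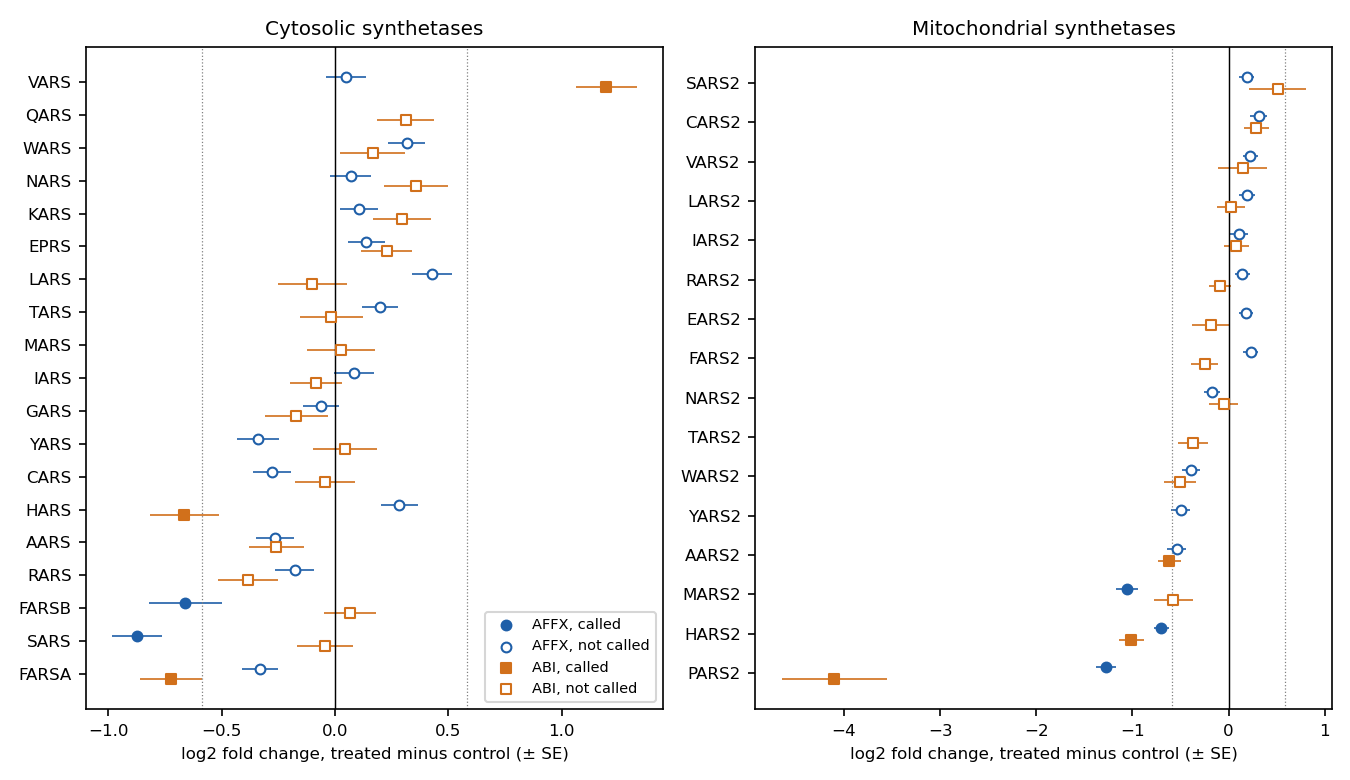
log2 fold change (treated minus control, with SE, from 3 arrays per group) of each cytosolic (left) and mitochondrial (right) synthetase, circles for AFFX and squares for ABI, filled where called, with dotted lines at 1.5-fold. Most genes lie between the dotted lines on both platforms, and PARS2 on ABI, at -4.10, lies farthest out.

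Without the fold limit, limma placed 12 of 32 synthetases lower and 6 higher on AFFX, against 21.8% and 33.1% of all genes. On ABI it placed 5 of 34 lower and 1 higher, against 15.8% and 8.41% of all genes. The lower share on AFFX was thus above that of all genes and the higher share below it, a difference that was not tested. Among those lower on AFFX, SARS, FARSB, YARS and CARS rest on dimmer probe sets. Their brightest ones gave 0.05, 0.14, 0.16 and -0.08, none with an adjusted p under 0.05 in limma. Among those higher, LARS rests on a dimmer probe set, and its brightest one gave 0.11. By array values alone, all 3 treated arrays lay below all 3 control arrays for 15 of 32 synthetases on AFFX and above them for 12, against 24.1% and 45.2% of all genes. On ABI the treated arrays lay below for 12 of 34 and above for 6, against 23.9% and 23.1% of all genes. The AFFX values are thus separated for most synthetases, and most of these steps were under 1.5-fold. Over all measured synthetases the AFFX changes ran from -1.27 (PARS2) to 0.43 (LARS) on the log2 scale.

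The scaling of the arrays moved the split of lower and higher calls. With quantile normalization 4 synthetases were lower and 1 higher on AFFX, and 2 lower and 1 higher on ABI. Among all 19777 genes on AFFX, 2543 were then lower and 1034 higher. Among all 17192 on ABI, 2208 were lower and 1469 higher. With arrays centred on cytosolic ribosomal protein genes, 8 were lower and 0 higher on AFFX, and 21 lower and 1 higher on ABI. Among all genes, 3889 were then lower and 47 higher on AFFX, and 5607 lower and 71 higher on ABI. The median of all genes became -0.16 on AFFX and -0.58 on ABI. As deposited, those all-gene medians were 0.16 on AFFX and 0.09 on ABI.

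The 2 compartments were set side by side. Cytosolic enzymes were lower in 2 of 17 cases on AFFX (11.8%, against 14.2% of all genes), with a median log2 fold change of 0.05. On ABI they were lower in 2 of 19 cases (10.5%, against 14.8%) and higher in 1, with a median of -0.02. Of the mitochondrial enzymes, 3 of 15 were lower on AFFX (median 0.11) and 3 of 15 on ABI (median -0.18), 20% on each against the same 14.2% and 14.8%, and none was higher. As deposited, the 2 medians stood in opposite order on the 2 platforms. That order on AFFX depended on the setting: the mitochondrial median was the lower one with arrays centred on the median (-0.17 and -0.12 for the cytosolic genes), on ribosomal protein genes or on hybridisation controls, and with the brightest probe of each gene. The order on ABI turned with quantile normalization, where the mitochondrial median became positive and the median of all synthetases was -0.11. Each gene was then centred on its mean over the 6 arrays of a platform. On ABI, the medians over the mitochondrial genes were -0.05, -0.12 and -0.16 in the treated arrays and 0.20, 0.02 and -0.01 in the control arrays. The mitochondrial medians on AFFX were 0.08, 0.09 and -0.07 in the treated arrays and 0.07, -0.02 and -0.05 in the control arrays. The ABI groups did not overlap and the AFFX groups did.

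PARS2, which charges mitochondrial tRNA with proline, had the largest fall of all synthetases. AFFX gave 5.28, 5.53 and 5.57 in treated cells and 6.66, 6.65 and 6.89 in control cells (log2 signal). It fell by 1.27 ± 0.11 on the log2 scale (SE), or 2.42-fold, with an adjusted p of 4.3e-06 in limma. ABI gave -1.84, -1.89 and 0.04 in treated cells and 2.95, 2.85 and 2.82 in control cells (log2 signal). All treated arrays lay below all control arrays on both platforms. On ABI it fell by 4.10 ± 0.55 (17.2-fold, adjusted p = 0.00696 in limma), and this size rests on treated values that lie around -0.82, the median log2 level of the leukocyte, fibroblast and endothelial markers on ABI. The change differed between the platforms by -2.83 (ABI minus AFFX, interaction in limma, adjusted p = 0.0101).

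EPRS carries the cytosolic activity for proline, joined to that for glutamate in 1 protein. AFFX gave 11.10, 11.02 and 10.99 in treated cells and 10.98, 10.88 and 10.84 in control cells. ABI gave 7.76, 7.69 and 7.68 in treated cells and 7.48, 7.46 and 7.50 in control cells. The treated arrays lay above the control arrays on both platforms, by 0.14 ± 0.08 and 0.23 ± 0.11 (SE), and neither passed the test (adjusted p = 0.205 and 0.212 in limma). The log2 ratio of PARS2 to EPRS differed by -1.41 on AFFX and -4.33 on ABI (treated minus control). The exact permutation test gave p = 0.1 for each, two-sided, the smallest that 3 against 3 arrays allow.

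HARS2, the mitochondrial histidyl enzyme, was the other gene called on both platforms. AFFX gave 7.48, 7.48 and 7.38 in treated cells and 8.17, 8.09 and 8.17 in control cells. ABI gave 3.36, 3.35 and 3.44 in treated cells and 4.54, 4.39 and 4.26 in control cells. The groups did not overlap on either, and HARS2 fell by 0.70 ± 0.08 on AFFX (1.62-fold, adjusted p = 6.19e-05 in limma) and fell by 1.01 ± 0.13 on ABI (2.01-fold, adjusted p = 0.0063). The AFFX call was lost with quantile normalization, where the change no longer reached 1.5-fold. The difference of the changes between platforms was -0.31 (adjusted p = 0.131).

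HARS, the cytosolic histidyl enzyme, is the head-to-head neighbour of HARS2 on chromosome 5, and the 2 genes start 84 bases apart on opposite strands. The stretch holding both starts, chr5:140691311-140691504 (RefSeq, GRCh38.p14, plus strand), is shown because its 2 genes gave different values on AFFX, with the bases between the starts in capitals. HARS runs to the left of the capitals and HARS2 to the right, and their 300-base windows share 184 bases.
HARS and HARS2: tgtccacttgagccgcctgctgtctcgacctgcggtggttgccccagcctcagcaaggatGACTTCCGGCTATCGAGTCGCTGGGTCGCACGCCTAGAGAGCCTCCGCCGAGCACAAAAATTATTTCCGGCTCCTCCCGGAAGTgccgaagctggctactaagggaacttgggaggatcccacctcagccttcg
For HARS, AFFX gave 10.10, 10.16 and 10.02 in treated cells and 9.83, 9.79 and 9.81 in control cells. The treated arrays were all higher, by 0.28 ± 0.08, which was under 1.5-fold (1.22-fold, adjusted p = 0.0176 in limma). On ABI the probe with the lowest p gave 0.92, 0.54 and 0.79 in treated cells and 1.52, 1.40 and 1.32 in control cells. The difference there was -0.66 ± 0.15 (1.58-fold, adjusted p = 0.0338). The brighter ABI probe of HARS differed by 0.01 ± 0.17 (adjusted p = 0.981), and the call was lost when any 1 of the 6 ABI arrays was left out. The platforms differed by -0.95 (ABI minus AFFX, adjusted p = 0.00247). The log2 ratio of HARS2 to HARS differed by -0.98 on AFFX and -0.35 on ABI with the probe of lowest p (treated minus control, exact permutation test, p = 0.1 each).

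**Figure D2:**
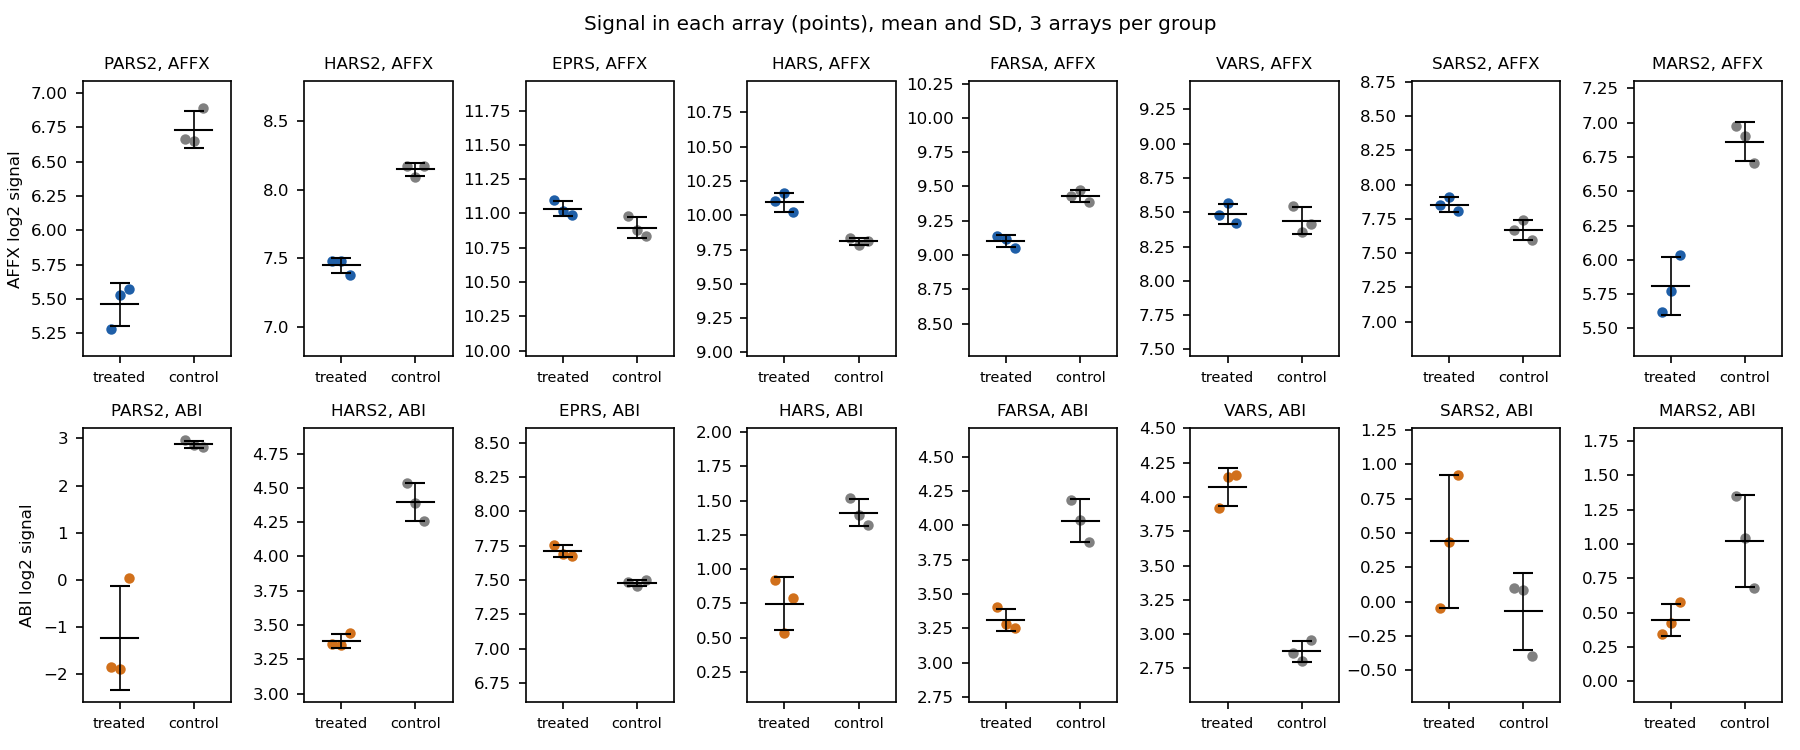
log2 signal in each array of 8 synthetases, AFFX above and ABI below, treated left and control right in each panel, with mean and SD of 3 arrays. Panels span at least 2 log2 units with their own range. PARS2 and HARS2 are lower in all treated arrays on both platforms, EPRS is higher in all treated arrays, and VARS is higher on ABI alone.

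MARS2 and AARS2 were called on 1 platform each and are named outside the rule for genes, after their values were seen. MARS2, which charges the methionine tRNA of mitochondria, gave 5.62, 5.77 and 6.03 in treated cells and 6.98, 6.90 and 6.70 in control cells on AFFX. It fell by 1.05 ± 0.12 (2.08-fold, adjusted p = 4.71e-05 in limma). On ABI it gave 0.34, 0.42 and 0.58 in treated cells and 1.35, 1.04 and 0.68 in control cells, also without overlap (difference -0.58 ± 0.20, adjusted p = 0.106). AARS2, the mitochondrial alanyl enzyme, gave 2.50, 2.51 and 2.56 in treated cells and 3.19, 3.05 and 3.17 in control cells on ABI. That difference of -0.62 ± 0.12 (1.53-fold, adjusted p = 0.0201) lost its call when any 1 of the 6 ABI arrays was left out. On AFFX the probe set with the lowest p for AARS2 gave -0.54 ± 0.10 (adjusted p = 0.00132, 1.45-fold), and its other probe set gave -0.05 ± 0.08.

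By the mean of the 2 platforms' log2 fold changes, the highest mitochondrial gene was SARS2, the seryl enzyme, at 0.35. AFFX gave 7.85, 7.91 and 7.80 in treated cells and 7.67, 7.74 and 7.60 in control cells, a step of 0.19 ± 0.08 (adjusted p = 0.0947 in limma). ABI gave -0.04, 0.43 and 0.93 in treated cells and 0.10, 0.08 and -0.40 in control cells. These overlapped (difference 0.51 ± 0.29, adjusted p = 0.282). The other mitochondrial genes with AFFX values between -0.50 (YARS2) and 0.32 (CARS2) were not called. On ABI, WARS2, the tryptophanyl enzyme, gave -0.51 ± 0.17 (adjusted p = 0.0884) beside -0.39 ± 0.09 on AFFX (adjusted p = 0.00667, 1.31-fold), and TARS2, the threonyl enzyme, gave -0.37 ± 0.15 (adjusted p = 0.153).

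Pairs of 1 amino acid, with the mitochondrial and the cytosolic enzyme, did not share a direction. The log2 fold change was lower in the mitochondrial partner in 7 of 14 pairs on AFFX and in 9 of 15 on ABI. The pair for tryptophan stood beside those for proline and histidine, with WARS2 minus WARS at -0.71 on AFFX and -0.67 on ABI. The pair for cysteine ran the other way, with CARS2 minus CARS at 0.59 on AFFX and 0.33 on ABI. The AFFX ratio used the CARS probe set of lowest p, at -0.28, while its other probe sets gave 0.03, -0.08 and 0.44. The pair for phenylalanine also had the higher value in the mitochondrial partner, with FARS2 minus FARSA at 0.56 on AFFX and 0.47 on ABI. None of these ratios can pass 0.05 in an exact permutation test of 3 against 3 arrays.

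Among the cytosolic enzymes the lowest by that mean, at -0.53, was FARSA, the catalytic alpha subunit of the phenylalanyl enzyme. ABI gave 3.40, 3.28 and 3.25 in treated cells and 4.19, 4.04 and 3.88 in control cells, a difference of -0.72 ± 0.14 (1.65-fold, adjusted p = 0.0207 in limma). AFFX gave 9.14, 9.11 and 9.05 in treated cells and 9.43, 9.47 and 9.38 in control cells. The AFFX groups did not overlap either, at -0.33 ± 0.08 (1.26-fold, adjusted p = 0.00823), and the second AFFX probe set of FARSA gave -0.46 ± 0.08. The ABI call was lost when treated array 2 or 3, or control array 1 or 2, was left out. FARSB, the beta subunit, was called lower on AFFX (-0.66 ± 0.16, adjusted p = 0.00872) on a probe set with means of 4.08 in treated and 4.74 in control cells. Those levels lie below 4.86, the median log2 level of the leukocyte, fibroblast and endothelial markers on AFFX. Its brightest probe set gave 0.14 ± 0.08, and ABI gave 0.07 ± 0.12 (adjusted p = 0.735).

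The highest cytosolic gene by the same mean, at 0.62, was VARS, the valyl enzyme. ABI gave 3.92, 4.14 and 4.16 in treated cells and 2.87, 2.80 and 2.96 in control cells, without overlap, a rise of 1.20 ± 0.13 (2.29-fold, adjusted p = 0.00379 in limma). AFFX gave 8.48, 8.56 and 8.42 in treated cells and 8.55, 8.35 and 8.42 in control cells. These overlapped, at 0.05 ± 0.09, and the other AFFX probe set of VARS differed by less than 0.01 either way. The platforms differed by 1.15 (adjusted p = 0.000487), with the ABI rise called under each scaling tried.

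SARS, the cytosolic seryl enzyme, also depended on the probe and is named after its values were seen. The AFFX probe set with the lowest p gave 6.51, 6.35 and 6.14 in treated cells and 7.24, 7.32 and 7.06 in control cells, a difference of -0.87 ± 0.11 (adjusted p = 0.000129 in limma). The other, brighter probe set gave 11.02, 11.00 and 10.91 in treated cells and 10.99, 10.86 and 10.92 in control cells, which overlapped (0.05 ± 0.08). ABI gave -0.05 ± 0.12, and the platform difference of the change was 0.83 (adjusted p = 0.00744). What the probe sets of SARS detect was not tested. Taking the brightest probe of each gene, 3 synthetases were lower on AFFX in place of 5, namely PARS2, MARS2 and HARS2.

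**Figure D3:**
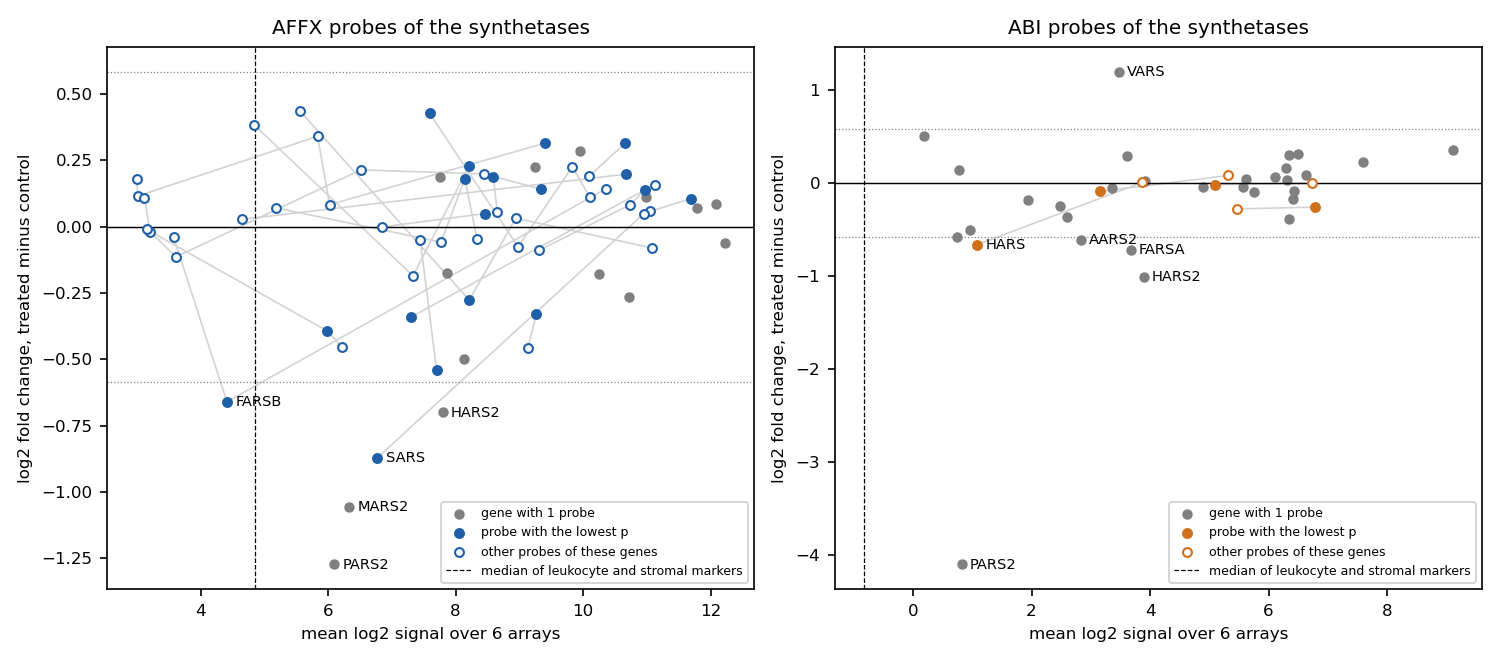
log2 fold change of every single-gene probe of the synthetases (treated minus control) against its mean log2 signal over 6 arrays, 67 probe sets of 32 genes on AFFX (left) and 38 probes of 34 genes on ABI (right), with grey lines joining probes of a gene. The AFFX calls of SARS and FARSB each rest on a dimmer probe set, while PARS2, MARS2 and HARS2 have 1 probe set each.

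None of the multisynthetase complex enzymes was called, where 14.2% of all genes on AFFX and 14.8% on ABI were called lower. At an unadjusted p under 0.05 in limma, 1 complex enzyme was higher on AFFX and 1 lower on ABI. Of 8 such genes, 5 were measured on AFFX (median 0.11, between -0.18 and 0.43) and 7 on ABI (median 0.03, between -0.38 and 0.31). RARS, the arginyl enzyme, was the lowest on both, at -0.18 ± 0.09 on AFFX and -0.38 ± 0.13 on ABI (adjusted p = 0.127 and 0.0998 in limma). LARS, the leucyl enzyme, was the highest on AFFX at 0.43 ± 0.09 (1.35-fold, adjusted p = 0.00359), and ABI gave -0.10 ± 0.15. That AFFX value came from the dimmest of its 4 probe sets, and the others gave 0.11, 0.23 and -0.08, none past the threshold. The scaffold AIMP1 gave 0.51 ± 0.13 on AFFX (1.43-fold) and 0.10 on ABI, neither called. Outside the complex stood 12 cytosolic enzymes, with 2 called lower on AFFX (16.7%, against 14.2% of all genes). On ABI, 2 of them were called lower (16.7%, against 14.8%) and 1 higher (8.33%, against 6.31%), shares near those of all genes. Complex and free enzymes were not tested against each other.

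By catalytic class, 1 of 16 class I enzymes was lower on AFFX (MARS2). On ABI, 0 of 17 were lower (3 at an unadjusted p under 0.05 in limma) and 1 was higher (VARS). Of class II, 4 of 15 were lower on AFFX (26.7%) and 5 of 16 on ABI (31.2%), against 14.2% and 14.8% of all genes. None was higher, and the class II medians were -0.17 and -0.21, against 0.16 and 0.09 over all genes. Left-out arrays moved the class II count on ABI to between 2 and 3. The AFFX calls of SARS and FARSB, both class II, rest on dimmer probe sets, and their brightest ones gave 0.05 and 0.14. With the brightest probe of each gene, PARS2 and HARS2 alone remained of class II on AFFX. The ABI call of HARS likewise rests on its dimmer probe. The classes were not tested against each other.

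The 6 genes with TTGCATCA lay close to 0. On AFFX, 5 of them had a median of 0.07 and ran between -0.28 (CARS) and 0.20 (TARS). Other AFFX probe sets of CARS gave 0.03, -0.08 and 0.44. On ABI, all 6 had a median of -0.03 and ran between -0.26 (AARS) and 0.36 (NARS). None was called on either platform by limma or by the methods' t-test with the same adjustment and fold limit, and at an unadjusted p under 0.05 in limma 2 were lower and 1 higher on AFFX and 1 was higher on ABI. The cytosolic genes with a window but without the letters had medians of -0.06 on AFFX (9 genes, 2 lower) and 0.01 on ABI (10 genes, 2 lower). Of all genes, 14.2% on AFFX and 14.8% on ABI were lower. Those calls were SARS and FARSB on AFFX, and HARS and FARSA on ABI. All but FARSA rest on a dimmer probe, and the brightest ones gave 0.05 (SARS), 0.14 (FARSB) and 0.01 (HARS). AARS, the alanyl enzyme, gave -0.26 on both platforms, with adjusted p = 0.0295 on AFFX and 0.195 on ABI in limma.

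Several genes of the amino acid response had larger falls than any synthetase on AFFX. The ATF4 pathway and its amino acid supply had 31 genes on AFFX, with 12 called lower (38.7%, against 14.2% of all genes). There 0 were called higher, against 2.49% of all genes (5 at an unadjusted p under 0.05 in limma). On ABI the list had 30, with 11 called lower (36.7%, against 14.8%) and 3 called higher (10%, against 6.31%). Of 30 on both platforms, 9 were lower on both, against 10.5% of all shared genes. The gene for ATF4 itself was high on AFFX at 12.38, 12.34 and 12.33 in treated cells and 12.35, 12.31 and 12.34 in control cells, which overlapped. On ABI it rose by 0.82 ± 0.15 (1.77-fold, adjusted p = 0.0176 in limma). PSAT1 and PHGDH were also called higher on ABI (0.64 and 0.62), and gave -0.23 and 0.23 on AFFX, neither called. ASNS, SHMT2 and ALDH18A1 lay between 0.09 and 0.26 on the 2 platforms, while MTHFD2 gave -0.20 on AFFX and -0.32 on ABI, none of them called. The ASNS value on AFFX came from a probe set at 3.74 in treated and 3.65 in control cells, below the marker level of 4.86. On ABI ASNS stood at 7.78 in treated and 7.66 in control cells, a difference of 0.12 ± 0.13. The list thus held falls, rises and genes with little change. Leaving out any 1 ABI array reduced the 3 higher genes of the list to between 0 and 1.

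CEBPB, a basic leucine zipper factor that can pair with ATF4, fell by 3.42 ± 0.14 on AFFX and fell by 3.07 ± 0.34 on ABI (adjusted p = 3.3e-08 and 0.00387 in limma). Its ABI signals in treated cells, -2.74, -2.64 and -1.69, all lie below the marker level of -0.82 on that platform. SLC38A2, a transporter of neutral amino acids that ATF4 induces on starvation, gave 8.43, 8.58 and 8.41 in treated cells and 11.56, 11.54 and 11.52 in control cells on AFFX. It fell by 3.07 ± 0.08 there and fell by 2.97 ± 0.18 on ABI (adjusted p = 3.12e-09 and 0.000832). EIF2AK3, the kinase PERK upstream of ATF4, fell by 2.50 ± 0.15 on AFFX and fell by 1.60 ± 0.24 on ABI (adjusted p = 2.94e-07 and 0.0102). DDIT3, the factor CHOP downstream of ATF4, fell by 1.09 ± 0.13 on AFFX and fell by 2.93 ± 0.38 on ABI (adjusted p = 9.79e-05 and 0.00627).

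**Figure D4:**
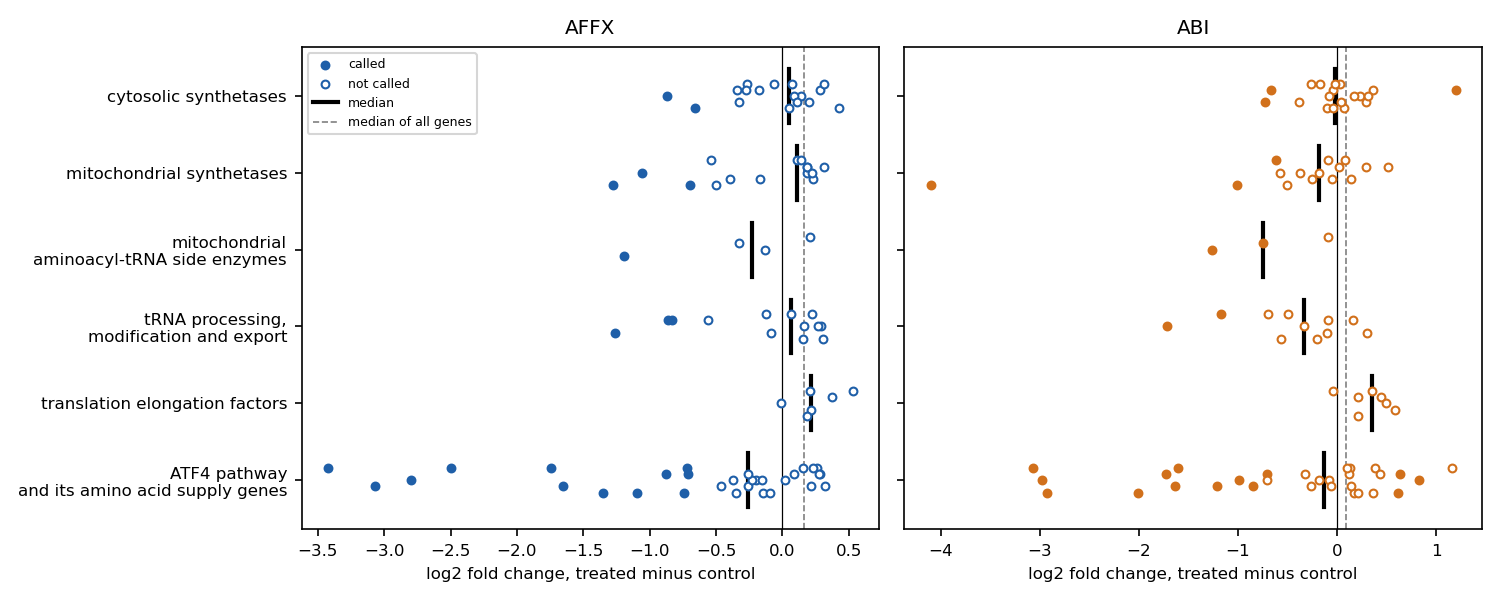
log2 fold change (treated minus control) of each measured gene on AFFX (left) and ABI (right), filled where called, by group, with black bars at group medians and a dashed line at the median of all genes (0.16 on AFFX, 0.09 on ABI). The synthetases cluster near 0 with PARS2 farthest left, while genes of the ATF4 pathway spread down to -3.42 on AFFX.

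Other genes that act on tRNA were compared by list. Mitochondria have no separate glutaminyl enzyme and instead amidate a mischarged tRNA, and QRSL1, the GatA subunit of that amidotransferase, was lower on both platforms. It gave 7.23, 7.42 and 7.28 in treated cells and 8.56, 8.45 and 8.50 in control cells on AFFX, a difference of -1.19 ± 0.09 (adjusted p = 1.46e-06 in limma). On ABI it gave 2.50, 2.63 and 2.90 in treated cells and 4.01, 3.83 and 3.98 in control cells, a difference of -1.26 ± 0.15 (adjusted p = 0.00511). The other subunits, GATB and GATC, were not called where measured. MTFMT, which formylates the mitochondrial initiator, was lower on ABI alone (-0.75 ± 0.13, adjusted p = 0.015).

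Genes of tRNA processing, modification and export numbered 13 on AFFX, with 3 called lower (23.1%, against 14.2% of all genes), and 11 on ABI, with 2 called lower (18.2%, against 14.8%). None was called higher on either, where 2.49% of all genes on AFFX and 6.31% on ABI were. At an unadjusted p under 0.05 in limma, 4 were higher on AFFX and 0 on ABI. ELAC1, an endonuclease for the 3′ ends of tRNA, fell by 1.26 ± 0.13 on AFFX and fell by 1.72 ± 0.14 on ABI (adjusted p = 2.86e-05 and 0.0014 in limma). PUS1, a pseudouridine synthase of cytosolic and mitochondrial tRNA, fell by 0.83 ± 0.09 on AFFX and fell by 1.17 ± 0.15 on ABI (adjusted p = 3.65e-05 and 0.00639). Elongation factors, which bring charged tRNA to the ribosome, gave 0 calls among 6 genes on AFFX (median 0.21) and 7 on ABI (median 0.36). Of all genes, 14.2% were called lower and 2.49% higher on AFFX, and 14.8% and 6.31% on ABI. EEF2 gave 0.59 ± 0.16 on ABI (1.5-fold, adjusted p = 0.0506 in limma) and -0.01 ± 0.08 on AFFX. At an unadjusted p under 0.05, limma placed 4 elongation factors higher on AFFX and 3 on ABI, and the methods' t-test, adjusted and with the fold limit, called 0 on each.

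The change itself was compared between platforms for the 31 shared synthetases. It differed past the threshold for 5, PARS2, HARS, SARS, VARS and FARS2, which is 16.1% against 15.1% of all shared genes. FARS2, the mitochondrial phenylalanyl enzyme, gave 0.23 ± 0.08 on AFFX and -0.25 ± 0.14 on ABI, neither called (difference -0.48, adjusted p = 0.0352 in limma). A second AFFX probe set of FARS2 gave -0.19 ± 0.09 (adjusted p = 0.141), the sign of the ABI probe, and the third 0.38 ± 0.11. For SARS and HARS the difference rests on the choice of probe described above.

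**Figure D5:**
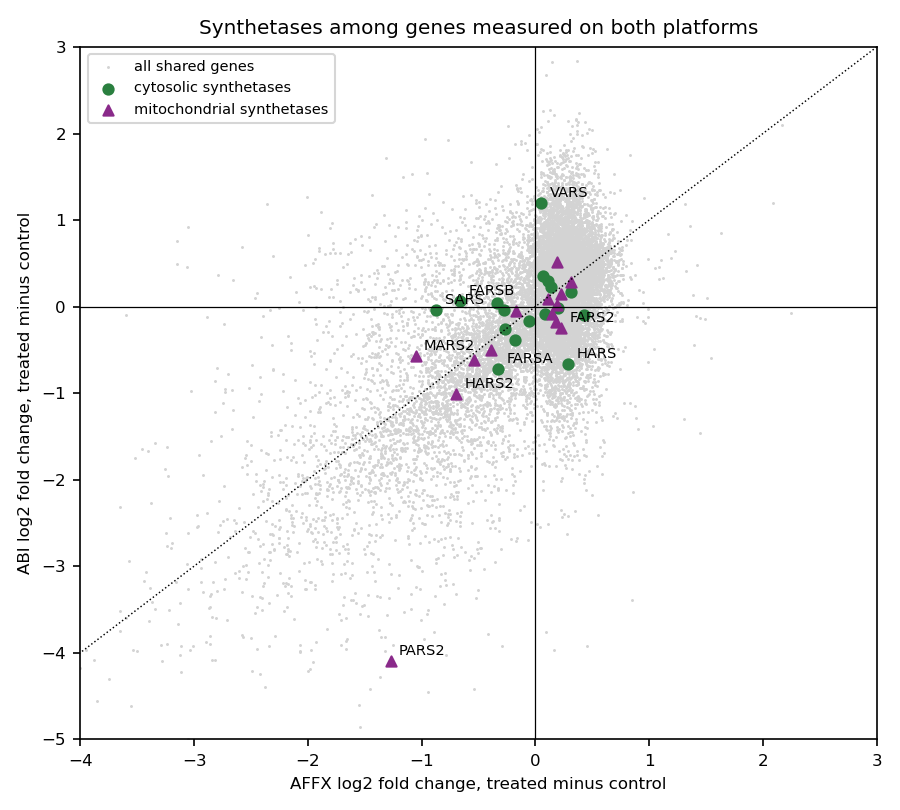
log2 fold change on ABI against that on AFFX (treated minus control) for 16186 shared genes in grey and 31 synthetases in colour, with a dotted line of equality, and 10 genes outside the plotted range. PARS2 and HARS2 lie in the lower left, VARS above the others at 1.20 on ABI, and most synthetases near the centre.

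Across the series the arrays were alike in level, with medians of all probes between 5.42 and 5.47 in treated and 5.37 and 5.41 in control arrays on AFFX. Hybridisation controls were 0.52 higher (log2) in treated AFFX arrays. With arrays centred on them, 17 of 32 synthetases were lower on AFFX, beside 6526 of all 19777 genes. The median of all genes became -0.46. Epithelial markers of a carcinoma were low in A2780, with EPCAM at 4.21 in treated and 4.23 in control cells on AFFX and CDH1 at 4.45 and 4.17. PAX8 was brighter at 7.83 and 7.65, and 0 of 8 such markers were called on AFFX, against 1 lower (KRT18) and 1 higher (MUC16) of 7 on ABI. None of 6 leukocyte markers was called on either platform, with a summed linear signal of 266 to 297 in treated and 244 to 256 in control AFFX arrays. Of 7 fibroblast and endothelial markers, COL1A2 and COL3A1 were lower on AFFX and COL1A1 was higher on ABI, while their summed linear signal ran from 15772 to 17194 in treated and 15944 to 17134 in control AFFX arrays.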

How the data were processed

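Gene expression was measured on 3 treated and 3 control arrays per platform, and samples were grouped by the labelled condition. The AFFX table deposited by the authors holds log2 values from RMA (version not given in the sources used here). The ABI table that the authors deposited holds intensities scaled to a global median, with no detection flags. Their scale is not given in the sources used here, and they were read as linear and turned to log2. Of 54613 AFFX probe sets and 33096 ABI probes other than controls, 41091 and 21089 stand for 1 gene by the platform annotation, and the rest entered only the adjustment of p-values. RMA's quantile step and the median scaling bring array levels close, so a change shared by most transcripts may be reduced.

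For genes with several probes (18 synthetases on AFFX, 4 on ABI), 1 probe was used, that of the smallest p in the methods' t-test, following the study. The same arrays serve the choice and the fit, so changes of such genes lean away from 0. Arrays were compared with limma 3.58.1 in R 4.3.3, without a block, with Benjamini-Hochberg adjustment over all probes, and called at an adjusted p under 0.05 and 1.5-fold. The difference between platforms was an interaction in limma over shared genes. Ratios of pairs used an exact permutation test over 6 arrays. The steps were tested on simulated data, called by limma at an adjusted p under 0.05 and 1.5-fold. Of 100 probes changed 2-fold, 90% were called in a simulation of AFFX (54613 probes) and 10% in one of ABI (33096 probes). Of 100 changed 4-fold, 100% and 59% were called. No other probes were changed, a far smaller share than was called in the data. A smaller share makes the adjusted threshold stricter, so these percentages may understate recovery in the data.

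The members and lists were chosen with earlier results of these data known. All 36 members were accounted for. Values in every array are given for members called alike on both platforms, the lowest and highest member of each compartment by the mean of the 2 changes, and pairs of 1 amino acid with such a call. Up to 4 genes per pathway list called alike on both platforms are named, by the same mean. The alternatives were other probe choices, a replicate block, scalings, a filter on dim probes, the methods' t-test, other fold limits and left-out arrays. The tables hold 0 columns of other samples. No array duplicated another.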

Additional observations from a re-analysis of the deposited data

Results flagged for a closer look

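The change differed between the 2 platforms for 5 synthetases, by a limma interaction over all 16186 shared genes, of which 15.1% passed the same threshold. On ABI minus AFFX, the difference of the log2 fold change was -2.83 for PARS2, -0.95 for HARS, -0.48 for FARS2, 0.83 for SARS and 1.15 for VARS. PARS2 was called lower on both platforms. HARS was called on ABI alone and SARS on AFFX alone, each on the dimmer of 2 probes of that platform. VARS was called on ABI alone, where it has 1 probe, and FARS2 on neither, with 1 of its 3 AFFX probe sets at -0.19, the sign of its ABI probe. What the probes of these genes detect was not tested.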

How the results depend on the processing

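Both PARS2 calls, the AFFX call of MARS2 and the ABI call of VARS held under every alternative run for them. With the brightest probe of each gene, AFFX gave 3 lower synthetases in place of 5, a mitochondrial median of -0.0441 and 3 platform differences in place of 5, and FARSB (0.14) and SARS (0.0495) on AFFX and HARS (0.0075) on ABI turned sign. The mean of all probes gave 3 lower on AFFX and 3 platform differences. Median centring gave AFFX medians of -0.12 (cytosolic) and -0.17 (mitochondrial) and 8 platform differences. Quantile normalization gave 1 higher on AFFX (LARS), 2 lower on ABI and 1 lower on both, with medians of -0.11 (cytosolic, AFFX) and 0.0114 (mitochondrial, ABI). Centring on ribosomal protein genes gave 8 lower on AFFX, 21 on ABI, 6 on both and 13 platform differences. Its medians were -0.20 and -0.40 on AFFX and -0.61 and -0.79 on ABI (cytosolic, then mitochondrial), and LARS2 on ABI became -0.59. Centring AFFX on hybridisation controls gave 17 lower on AFFX and 4 on both, medians of -0.60 and -0.70, and EPRS at -0.61, FARS2 at -0.71 and LARS at -0.60. These 2 centrings also moved the median of all genes, to -0.16 on AFFX and -0.58 on ABI with ribosomal protein genes, and to -0.46 on AFFX with hybridisation controls. Among all genes, 3889 on AFFX and 5607 on ABI were lower with ribosomal protein genes, and 6526 on AFFX with hybridisation controls. No fold limit gave 12 lower and 6 higher on AFFX and 4 lower on both, and a 2-fold limit 2 lower on each platform and 1 on both. Without dim probes FARSB on AFFX was 0.14. With 1 array left out and the probe chosen again, there were 4 to 6 lower and 0 to 0 higher on AFFX, 2 to 3 lower and 1 to 1 higher on ABI, and 2 to 3 lower on both. The medians then ran from -0.0555 to 0.13 (cytosolic) and 0.047 to 0.17 (mitochondrial) on AFFX, and from -0.0615 to 0.0517 and -0.30 to -0.0643 on ABI. FARSB on AFFX ran from -0.86 to 0.17, above 0 where its brighter probe set was taken. The replicate numbers did not pair the arrays: deviations of same-numbered arrays correlated at 0.07, 0.01 and 0.33 on AFFX and 0.02, -0.004 and 0.07 on ABI. With the replicate block, 1 synthetase (PARS2) was lower on ABI, 1 on both platforms and 5 on AFFX, and HARS2 (-1.01 on ABI) was among those not called there. Of 1088 member values recomputed, 36 lost a call, 45 gained one, 12 turned sign with a call in either setting, and 84 turned sign with none. Beyond what the settings themselves change, the cause was not tested. ABI gives no detection flags, so low values there, PARS2 in treated cells among them, bound a change poorly.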
